A study of Homo sapiens with 6 samples.

Results

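The replication-dependent histone genes were taken as every protein-coding gene of the deposited table whose symbol starts with HIST1H, HIST2H, HIST3H or HIST4H. The rule found 71 of 58735 genes, namely 6 genes for the linker histone H1, 17 for H2A, 18 for H2B, 15 for H3 and 15 for H4. Of these, 55 belong to the large HIST1 cluster on chromosome 6, 12 to HIST2 and 3 to HIST3, both on chromosome 1, and 1 to HIST4 on chromosome 12. The 19 other genes with such a symbol are pseudogenes and were not members.

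Their RNA was measured in MDA-MB-231, a human triple-negative breast cancer line labelled wild type. The cells received Salvia chinensis Benth (SCH) at 100 mg/l or vehicle for 24 h, with 3 samples in each group. SCH is a freeze-dried aqueous extract of the boiled herb, so a response cannot be assigned to one compound. Each group is one cell line grown in culture. The series' design text calls the samples of a group biological repeats. The labels give RPMI-1640 as the medium and the study's methods give DMEM. The libraries were made from RNA captured with poly-T beads, and raw counts per gene summed to between 16836369 and 20291379 per sample.

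Histones are the proteins that DNA is wrapped around, and the genes described here supply most of the new H1, H2A, H2B, H3 and H4 made while the genome is copied in S phase. Their mRNAs are unusual in that the main form carries no poly-A tail. It ends instead just after a short stem-loop, which the stem-loop binding protein SLBP holds and next to which the U7 small nuclear ribonucleoprotein directs the cut. Some of the genes can also be cut at an ordinary poly-A site further downstream, and such polyadenylated forms are known from cells that have left the cycle. Poly-T capture keeps the polyadenylated form and loses most of the other. The values below therefore describe polyadenylated or otherwise captured histone RNA, and not the total amount of histone mRNA.

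The stem-loop could be read from the GENCODE 29 transcripts of 31 members. The letters searched were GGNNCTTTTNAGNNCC on the transcript strand, which 29 of 19851 other protein-coding genes (0.146%) also hold. It was identical in 17 genes of the H2A, H2B and H3 types, and 4 other forms differed from it within the stem or at the variable loop base. One gene of each form is shown with 4 bases on either side, the stem-loop in capitals.
HIST2H2BE: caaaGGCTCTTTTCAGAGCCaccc
HIST1H2BD: caaaGGCTCTTTTAAGAGCCacgc
HIST1H4H: caaaGGCCCTTTTCAGGGCCgccc
HIST1H4I: aaaaGGCCCTTTTTAGGGCCccta
HIST1H2AG: caacGGCTCTTTTCAGGGCCaccc

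The form of HIST1H2BD was shared with HIST1H2BC, HIST1H2BF, HIST1H3G and HIST3H3, and that of HIST1H4H with HIST1H4B, HIST1H4E, HIST1H4J and HIST4H4. The form of HIST1H4I was shared with HIST2H4A and HIST2H4B, and HIST1H2AG had its own. In several members the annotated transcript runs on past this point, by 1729 bases in HIST2H2BE, 1655 in HIST1H4H and 1128 in HIST1H2AC. The last 50 bases of an annotated transcript held the poly-A signal letters AATAAA or ATTAAA, on the transcript strand, in 23 members, against 84.2% of 19922 protein-coding genes. These are the last 30 bases of the longest such transcript of the 5 members with the largest rises, with the signal in capitals.
HIST1H2BD: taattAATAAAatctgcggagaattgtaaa
HIST1H4H: agaattgtgaaaaAATAAAtgtttaagcca
HIST2H2BE: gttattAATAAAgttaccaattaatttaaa
HIST1H2BC: agacaaaATTAAAataactcctagtatctc
HIST1H2AC: tAATAAAaggtaatgcaaagggagaggaaa
Another 33 members, among them HIST1H2BK, HIST1H1C and HIST2H2AC, are annotated as coding sequence alone, so that their counts come from reads over the coding part and their annotated end says nothing about a poly-A site.

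Captured RNA of the members was scarce in every library, and it was higher after SCH. The 71 genes together took 1630, 1555 and 1527 counts in the vehicle samples and 2169, 2499 and 2574 in the SCH samples, which is 0.00803%, 0.00831% and 0.00833% of all counts against 0.0129%, 0.0139% and 0.0140%. Normalized with the TMM factors of edgeR, the summed level was 83.4, 86.5 and 85.7 CPM (counts scaled to a common normalized library size) with vehicle and 124, 134 and 135 CPM with SCH. No SCH sample was as low as any vehicle sample. The means were 85.2 ± 1.59 and 131 ± 6.01 CPM (SD, n = 3 each), a ratio of 1.54. RNA from whole cultures was measured, so a gene used in more cells and more RNA per cell cannot be told apart.

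Of the members 9 were called. With edgeR's quasi-likelihood test over all genes (adjusted p under 0.05), 8 members were raised, 1 was lowered and 9 of the 18 tested were not called. Among all 14736 genes tested, 58.7% were called, 29.3% raised and 29.4% lowered. The filter on low counts kept these 18 members and left out 53, of which 27 had no count in any library and 26 had a few. The 8 raised members are HIST1H1C, HIST1H2AC, HIST1H2BC, HIST1H2BD, HIST1H2BE, HIST1H2BN, HIST2H2BE and HIST1H4H, and the lowered one is HIST2H2AC. Of the 18 tested members, 8 had every SCH sample above every vehicle sample, where 31.1% of all tested genes did. They are the same 8 that were called raised. HIST2H2AC alone had every SCH sample below, where 31.3% of all tested genes did. The call and this separation use the same values, so the separation is not added support. At a log2 fold change of at least 1 in addition, 6 members were raised and HIST2H2AC was lowered, where 8.77% of all tested genes passed in either direction and 3.89% upward. Of these members, HIST1H2BE passed the filter on low counts through the SCH samples alone and HIST2H2AC because of the vehicle samples. The median log2 fold change of the 18 members was 0.72, beside -0.0034 for all tested genes. With at least 10 counts required in every sample, 13 members were tested and 7 were called, all raised, where 60.7% of 13540 genes were called and 30.3% raised, and HIST1H2BE and HIST2H2AC did not enter. The median of the members was 0.35 without SCH replicate 2 and 0.48 without SCH replicate 1, when 20 members passed the filter. With limma on log2(FPKM + 1) it was 0.18.

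**Figure D1:**
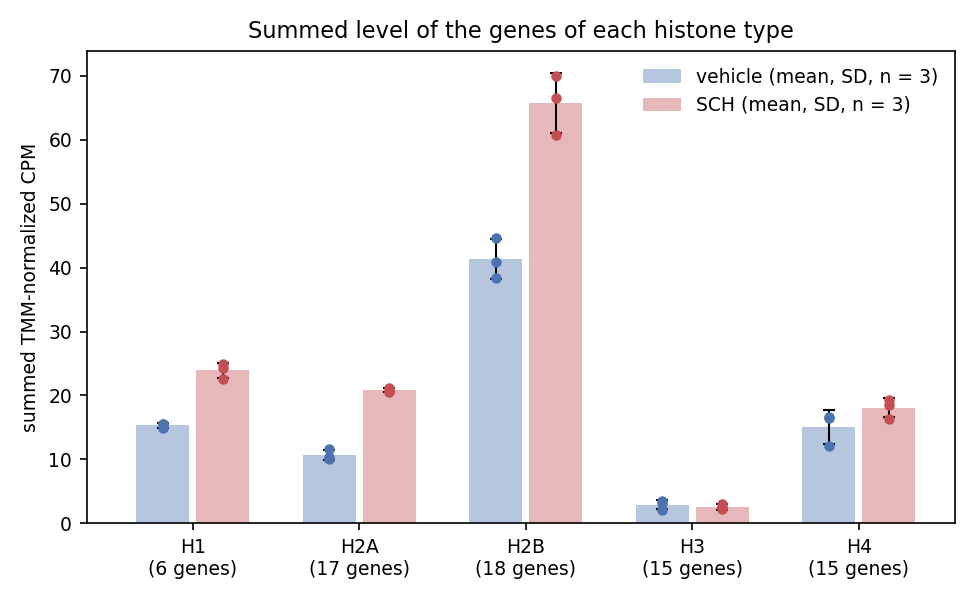
Summed TMM-normalized CPM of the genes of each histone type (y axis, linear from 0) for vehicle and SCH. Bars are means, error bars SD and points the 3 samples of a group. H1, H2A and H2B lie higher with SCH in every sample, from 41.3 to 65.8 CPM for H2B, and the groups of H3 and H4 overlap.

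By type, the summed level of the 18 H2B genes was 38.4, 40.8 and 44.6 CPM with vehicle and 60.8, 66.6 and 69.9 CPM with SCH, a ratio of 1.59. The 17 H2A genes had a smaller gap in CPM and the highest ratio of the 5 types, with 10.0, 11.6 and 10.4 against 20.6, 20.7 and 21.2 CPM, a ratio of 1.95. H1 went from 14.9, 15.5 and 15.6 to 24.3, 24.9 and 22.6 CPM, a ratio of 1.56. Within H1 the rise was that of HIST1H1C, from a mean of 12.8 to 22.0 CPM, while HIST1H1E went from 2.52 to 1.88 CPM. In all 3 types the groups were apart. H4 stood at 16.6, 16.5 and 12.1 CPM with vehicle and 16.4, 19.2 and 18.5 CPM with SCH, and H3 at 3.43, 2.11 and 3.09 against 2.18, 2.47 and 2.99 CPM, so that the groups overlapped in both. The core histones enter the nucleosome in equal number, whereas the captured RNA of their genes was unequal in level and in change.

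**Figure D2:**
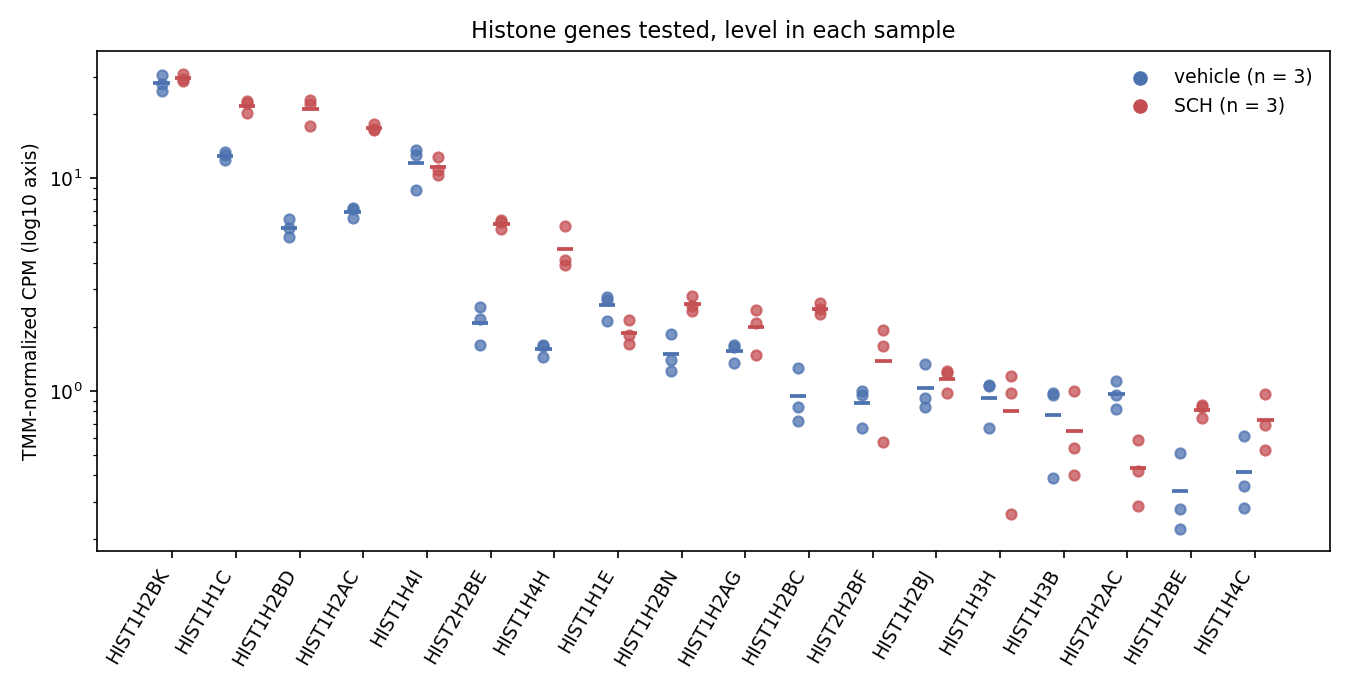
TMM-normalized CPM (y axis, log10) of the 18 tested members in each sample, ordered by mean count. Points are samples and short lines group means. HIST1H2BK overlaps between the groups at 25.8 to 31.1 CPM, while HIST1H2BD stands at 5.27 to 6.46 CPM with vehicle and 17.6 to 23.5 CPM with SCH.

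H2B genes filled 8 of the 18 tested places, and 5 of them were raised, beside 58.7% of all tested genes called and 29.3% raised. HIST1H2BD (chr6:26158146-26171349, plus strand, GRCh38) changed most. It had 103, 105 and 115 counts with vehicle and 307, 418 and 447 with SCH. In CPM this was 5.86 ± 0.592 against 21.2 ± 3.14 (SD, n = 3 per group), or 1.86 on the log2 scale (SE 0.12, adjusted p = 7.24e-12, edgeR). Its share of the counts of all members went from 6.85% to 16.2%. The gene makes a stem-loop transcript from a single exon and a spliced transcript without the stem-loop, and gene-level counts do not separate them. HIST2H2BE (chr1:149884459-149886652, minus strand) had 32, 39 and 44 counts with vehicle and 109, 108 and 121 with SCH. Its level went from 2.09 ± 0.421 to 6.13 ± 0.299 CPM, a log2 fold change of 1.55 (SE 0.18, adjusted p = 9.72e-08, edgeR).

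HIST1H2BC (chr6:26114873-26123926, minus strand) had 25, 13 and 15 counts with vehicle and 45, 43 and 46 with SCH, and every SCH sample lay above every vehicle sample. Its log2 fold change was 1.34 (SE 0.27, adjusted p = 1.63e-04, edgeR). HIST1H2BN had 36, 25 and 22 against 49, 47 and 45 counts, with a log2 fold change of 0.77 (SE 0.24, adjusted p = 0.00752, edgeR), and 7.25% of its annotated exon bases lie inside HIST1H2AK and HIST1H2AL. Its call was lost with limma on log2(FPKM + 1) without the filter, at 0.20 (adjusted p = 0.0505). HIST1H2BE is the weakest of the 5 in counts, with 10, 5 and 4 against 13, 16 and 16. It passed the filter on low counts through the SCH samples alone, where it was high, so it had to differ to be tested. Its log2 fold change of 1.23 (SE 0.42, adjusted p = 0.0151, edgeR) rests on few reads, and 28.2% of its exon bases overlap AL353759.1. Its call was lost without vehicle replicate 2 (adjusted p = 0.0571), without vehicle replicate 3 (adjusted p = 0.0679) and with DESeq2 (adjusted p = 0.0558).

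HIST1H2BK (chr6:27146418-27146798, minus strand) was the most counted of the members in both groups and was not called. It had 504, 497 and 543 counts with vehicle and 504, 549 and 593 with SCH, or 28.0 ± 2.36 and 29.8 ± 1.19 CPM. The groups overlapped, and the log2 fold change was 0.09 (SE 0.077, adjusted p = 0.312, edgeR). With the library size as the only scaling it was called at 0.20 (adjusted p = 0.0343). Its share of the counts of all members was 32.8% with vehicle and 22.7% with SCH. HIST2H2BF at 0.67 (adjusted p = 0.120) and HIST1H2BJ at 0.14 (adjusted p = 0.711) were not called either, and their groups overlapped. HIST2H2BF had 1 low SCH sample, and without SCH replicate 1 it was called at 1.03 (adjusted p = 0.0115).

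Among the H2A genes, HIST1H2AC (chr6:26124145-26139116, plus strand) had a difference in CPM about as large as that of the summed type. It had 127, 129 and 129 counts with vehicle and 297, 314 and 344 with SCH. The level went from 6.97 ± 0.410 to 17.3 ± 0.666 CPM (SD, n = 3 per group), which is 1.31 on the log2 scale (SE 0.10, adjusted p = 1.97e-10, edgeR). HIST1H2AG had 32, 29 and 24 against 42, 39 and 28 counts with overlapping groups, and at 0.37 (SE 0.26, adjusted p = 0.230, edgeR) it was not called. HIST2H2AC (chr1:149886975-149887364, plus strand) was the only tested member that was lowered, with 16, 20 and 17 counts against 5, 11 and 8. It passed the filter on low counts because of the vehicle samples, where it was high. The log2 fold change was -1.13 (SE 0.39, adjusted p = 0.0152, edgeR). This call was lost without vehicle replicate 2 (adjusted p = 0.0631), without SCH replicate 1 (adjusted p = 0.0754) and with DESeq2 (adjusted p = 0.0549), and 17.2% of the 100-base windows of its transcript also occur in other histone genes.

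The linker histone gene HIST1H1C (chr6:26055787-26056428, minus strand) had 237, 231 and 238 counts with vehicle and 396, 429 and 386 with SCH. Its level went from 12.8 ± 0.618 to 22.0 ± 1.49 CPM (SD, n = 3 per group), which is 0.78 on the log2 scale (SE 0.090, adjusted p = 9.99e-08, edgeR). HIST1H1E, another linker histone gene, had 54, 48 and 38 against 29, 34 and 41 counts. The groups overlapped and the log2 fold change of -0.42 (SE 0.22, adjusted p = 0.110, edgeR) was not called, whereas limma on log2(FPKM + 1) called it at -0.31 (adjusted p = 0.0274). HIST1H1T had 5 counts over the 6 libraries, and HIST1H1A, HIST1H1B and HIST1H1D had none.

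Of the H4 genes, HIST1H4H (chr6:26277609-26285638, minus strand) was raised. It had 32, 26 and 29 counts with vehicle and 68, 77 and 113 with SCH, or 1.57 ± 0.108 against 4.65 ± 1.12 CPM. The log2 fold change was 1.56 (SE 0.22, adjusted p = 1.35e-06, edgeR), and SCH replicate 3 lay well above the others. HIST1H4I had more counts and no call, with 266, 232 and 157 against 192, 234 and 198. Its log2 fold change of -0.06 (SE 0.13, adjusted p = 0.710, edgeR) had no stable sign, since it was above 0 without vehicle replicate 1, without vehicle replicate 2, without SCH replicate 3 or with library size as the only scaling. HIST1H4C at 0.79 (adjusted p = 0.119) was not called on 10.5 counts per library, though limma on log2(FPKM + 1) called it. The H3 genes that were tested, HIST1H3B at -0.25 (adjusted p = 0.630) and HIST1H3H at -0.21 (adjusted p = 0.685), were not called, and without SCH replicate 3 the value of HIST1H3H was 0.23. For these H3 genes the count called was 0 by edgeR, DESeq2 and limma, and 0 at an unadjusted p under 0.05.

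**Figure D3:**
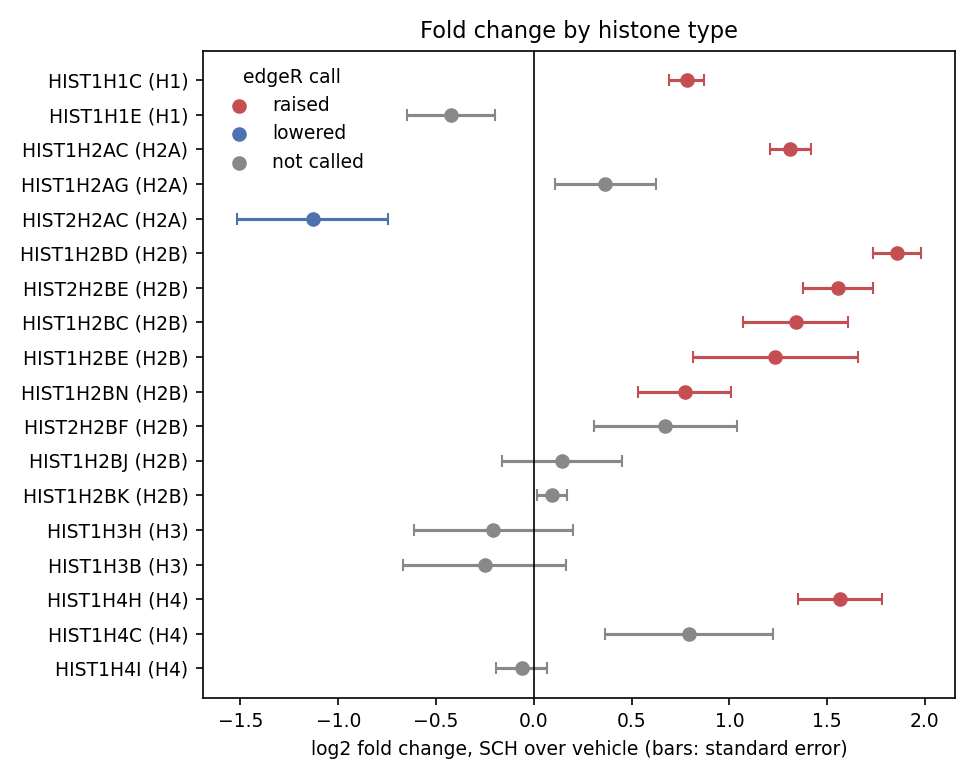
Log2 fold change of SCH over vehicle (x axis) for the 18 tested members, grouped by type, with bars of 1 standard error. Red is raised, blue lowered and grey not called. H2B holds 5 of the 8 raised genes, neither tested H3 gene is called, and HIST2H2AC at -1.13 stands alone on the left.

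Per length, the order of levels was different from that of counts. In FPKM, which divides by gene length, HIST1H2BK stood at 71.1 with vehicle and 76.1 with SCH and HIST1H1C at 19.3 and 33.3, both computed over the coding sequence alone. HIST1H4I followed at 8.81 and 8.50, HIST1H2BD at 6.51 and 23.6 and HIST1H2AC at 4.05 and 10.1. HIST1H2BD thus passed HIST1H4I after SCH. HIST2H2BE at 0.923 and 2.72, HIST1H4H at 0.703 and 2.09 and HIST1H2BN at 0.263 and 0.455 were far lower, over annotated lengths of 2194, 2163 and 5477 bases. A gene annotated with a long region that few reads cover gets a low FPKM, so levels of genes annotated as coding sequence alone and of genes annotated with long ends are not on an equal footing.

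The 26 members with some counts that the filter left out did not show the same picture. Fitted without the filter, 15 of them had a log2 fold change above 0 and 11 below 0. At an adjusted p under 0.05 edgeR called 0 raised and 2 lowered, and at an unadjusted p 1 and 4, while limma on log2(FPKM + 1) called 1 raised and 3 lowered. The lowered genes by edgeR were HIST1H2AH with 5, 10 and 6 against 2, 1 and 2 counts and HIST1H3J with 5, 3 and 7 against 0, 2 and 0, at adjusted p = 0.0457 and 0.0442 (edgeR). Without the filter 29.6% of all genes were called, 15.1% raised and 14.5% lowered. These members summed to 86, 77 and 79 counts with vehicle and to 50, 71 and 100 with SCH, so the groups overlapped. The 31 genes annotated as coding sequence alone other than HIST1H2BK and HIST1H1C had 91, 71 and 84 counts against 35, 44 and 90, again with overlap. With both included, the 33 genes summed to 42.6, 44.4 and 48.6 CPM with vehicle and 53.5, 54.8 and 56.1 CPM with SCH, without overlap.

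Counts were unevenly spread along the chromosome. In the HIST1 cluster, 15 neighbouring members from HIST1H4D to HIST1H2BI (chr6:26188765-26273356, 84.6 kb) had 1 count in all 6 libraries together, a single read in HIST1H2BG. The 21 annotated genes of any kind in this stretch had no other count. On its borders lie HIST1H2BE with 64 counts and HIST1H4H with 345. A shorter run of 5 members from HIST1H2AK to HIST1H4L (chr6:27837947-27873510, 35.6 kb) had no count. By order of starts it follows HIST1H2BN with 224 counts and precedes HIST1H3J with 17. HIST1H2BN (chr6:27837760-27865798) itself reaches into this stretch, and its exons overlap HIST1H2AK and HIST1H2AL. HIST3H2A and HIST3H2BB were at 0 as well. In total 27 members had 0 counts in every library. At 3 counts per library a count of 0 allows up to 0.148 to 0.178 CPM of the total, with counting error alone considered. In these runs, 100% of the exon bases of HIST1H2AK lie in HIST1H2BN. Of HIST1H3D and HIST1H2AD, 100% and 98.0% lie in AL031777.3. For HIST1H2AL the share in another gene is 1.02%, and the other members of the runs have no such overlap. Whether reads over the empty runs were lost before the counts were made was not tested, so a 0 there is not read as a limit on expression. The first stretch holds genes of all 5 types, including HIST1H1D.

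**Figure D4:**
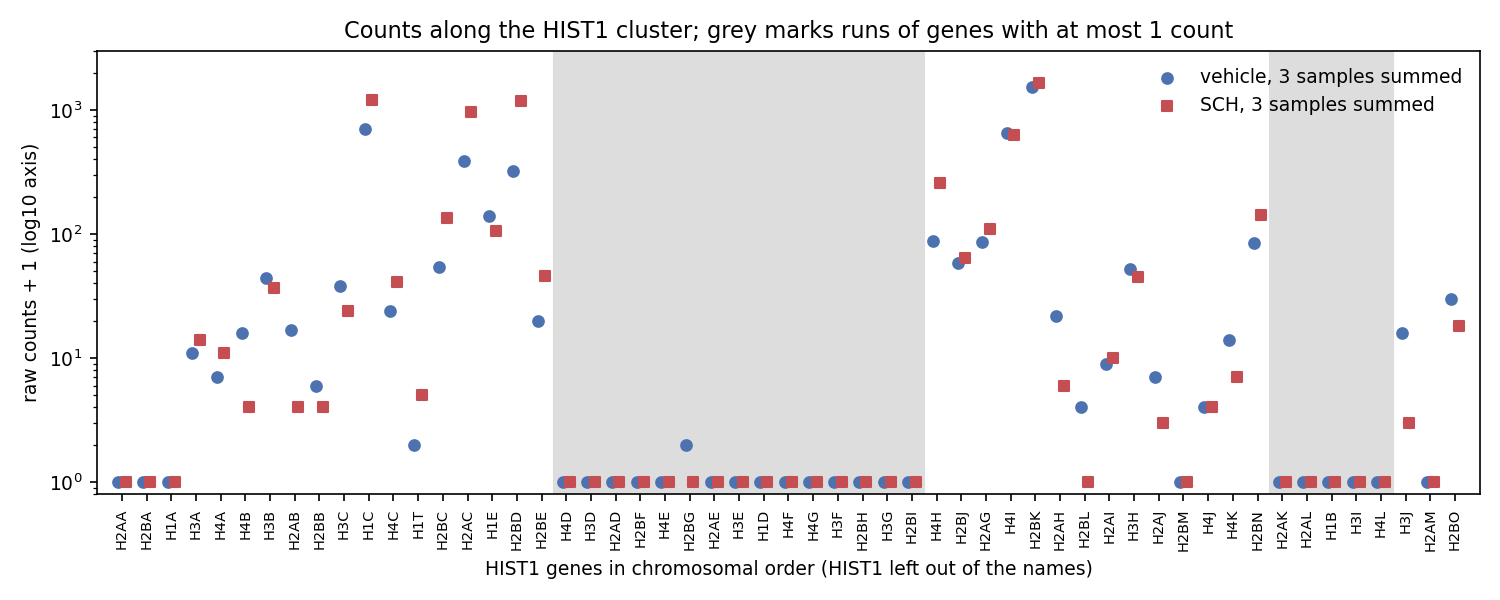
Raw counts plus 1 (y axis, log10), summed over the 3 samples of each group, for the 55 HIST1 genes in chromosomal order (x axis). Circles are vehicle, squares SCH, and grey bands mark the runs of 15 and 5 genes with at most 1 count per gene. The most counted genes, HIST1H1C, HIST1H2AC, HIST1H2BD, HIST1H4I and HIST1H2BK, stand on either side of the long run.

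Many H2A and H2B genes lie head to head and share the DNA between their starts, so the members of such a pair can be set side by side. Of 12 head-to-head pairs of members with starts within 500 bases, both members were tested in 3. HIST1H2BC and HIST1H2AC, whose starts are 219 bases apart, were both raised, at 1.34 and 1.31 on the log2 scale. HIST2H2BE and HIST2H2AC, with starts 323 bases apart, were called in opposite directions, at 1.55 and -1.13, but the second call rests on the selection and the lost calls of HIST2H2AC given above. In the pair of HIST1H2BK and HIST1H2AH, 331 bases apart, the first had 3190 counts over the 6 libraries and the second 26. HIST1H2BJ and HIST1H2AG, 292 bases apart, had 120 and 194 counts and neither was called. HIST1H2BD has no such partner within 500 bases. These pairs were looked at after the values of their members were known.

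The 250 bases before the RefSeq start (GRCh38.p14) are shown for the raised HIST1H2BD, for HIST1H2AC and HIST2H2BE, whose upstream DNA is shared with the pair partner, and for HIST1H2BK, which was not called. Each runs 5′ to 3′ on the strand of the named gene. Capitals mark 3 motifs searched on both strands, the octamer ATTTGCAT, CCAAT and the TATA letters TATAAA. The regions are chr6:26157871-26158120 (plus strand), chr6:26123922-26124171 (plus), chr1:149886683-149886932 (minus) and chr6:27146859-27147108 (minus).
HIST1H2BD: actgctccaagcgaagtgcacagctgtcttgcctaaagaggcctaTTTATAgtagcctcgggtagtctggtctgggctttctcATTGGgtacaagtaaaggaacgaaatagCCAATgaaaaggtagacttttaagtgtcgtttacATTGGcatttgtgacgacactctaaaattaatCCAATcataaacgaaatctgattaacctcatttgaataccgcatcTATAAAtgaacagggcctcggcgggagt
HIST1H2AC: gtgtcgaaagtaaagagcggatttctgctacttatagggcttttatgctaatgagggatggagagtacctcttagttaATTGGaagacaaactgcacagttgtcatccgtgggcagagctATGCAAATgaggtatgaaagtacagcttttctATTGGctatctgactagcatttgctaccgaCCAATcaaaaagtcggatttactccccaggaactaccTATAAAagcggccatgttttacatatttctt
HIST2H2BE: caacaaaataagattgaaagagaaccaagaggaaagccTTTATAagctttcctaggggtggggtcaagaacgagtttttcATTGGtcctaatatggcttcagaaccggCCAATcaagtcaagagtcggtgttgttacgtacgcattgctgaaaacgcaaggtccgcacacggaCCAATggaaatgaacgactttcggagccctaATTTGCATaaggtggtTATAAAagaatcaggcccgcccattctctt
HIST1H2BK: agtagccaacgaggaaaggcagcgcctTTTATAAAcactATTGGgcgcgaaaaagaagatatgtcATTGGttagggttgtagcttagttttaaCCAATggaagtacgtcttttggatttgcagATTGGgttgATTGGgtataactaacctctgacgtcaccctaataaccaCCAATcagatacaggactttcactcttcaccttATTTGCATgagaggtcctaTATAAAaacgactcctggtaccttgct

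Promoters of 62 members were found in the RefSeq table, from 250 bases before to 50 after the start. The octamer, known as the binding site of OCT1 in H2B promoters, was present in 13 of 16 H2B and 11 of 16 H2A promoters and in none of 6 H1, 12 H3 and 12 H4 promoters, against 1.77% of all 35116 promoters. HIST1H2AC, HIST2H2BE and HIST1H2BK each held it once, and HIST1H2BD did not hold these exact letters. CCAAT was in all H1, H2A, H2B and H3 promoters and in 2 of 12 H4 promoters, against 34.6% of all promoters. TATAAA was in 69.4% of members and 11.5% of all promoters. The letters AAACACA, which H1 promoters are known for, were in 6 of 6 H1 promoters and in 5.64% of all. HIST1H2BK, which was not called, thus has the octamer, CCAAT and TATAAA, and HIST1H2BD, which changed most, has CCAAT and TATAAA.

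The annotated ends were set beside the calls, a feature chosen after the values were seen. Only the 38 members annotated with more than coding sequence can be compared, 23 with the letters and 15 without. Among the 23 is HIST1H4J, which was not tested. Its letters lie before the stem-loop, and its transcript ends 6 bases after the stem-loop. Of the 11 tested members with AATAAA or ATTAAA at an annotated transcript end, 7 were raised and 4 were not called, HIST1H2AG, HIST1H2BJ, HIST1H3H and HIST2H2BF. The 7 include HIST1H2BE, which passed the filter through the SCH samples alone, and 58.7% of all tested genes were called and 29.3% raised, so that the share called lies near that of all genes. Of the 15 without these letters 3 were tested, HIST1H4I, HIST1H1E and HIST1H4C, and neither edgeR, under any scaling, nor DESeq2 called one of them, with 0 at an unadjusted p under 0.05 by edgeR, whereas limma on log2(FPKM + 1) called HIST1H1E lowered and HIST1H4C raised. The other 4 tested members, HIST1H1C, HIST2H2AC, HIST1H2BK and HIST1H3B, are annotated as coding sequence alone and are not part of this comparison. The 23 members with the letters summed to 24.2 ± 0.971 CPM with vehicle and 61.5 ± 4.29 CPM with SCH, a ratio of 2.54. The 15 without them summed to 15.8 ± 3.06 and 14.8 ± 1.56 CPM (SD, n = 3 each), with overlapping groups, and most of that came from HIST1H4I. Annotation with a poly-A site reflects in part which polyadenylated transcripts were found in earlier RNA collections, and the letters say nothing about which site was used in these cells.

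Some members are near copies of each other. All or nearly all 100-base windows of HIST2H2AA3 and HIST2H2AA4, HIST2H4A and HIST2H4B, HIST2H3A and HIST2H3C, and all of HIST1H4K, occur in another histone gene, so reads from them may be split or lost and their low counts are uncertain. None of these was tested. No such window was shared by HIST1H2BK, HIST1H1C, HIST1H2BD, HIST1H2AC, HIST1H4H or HIST1H4I, and 2.63% were shared by HIST2H2BE. The strand setting of the counting is not given in the sources used here and the library kit does not mark strand, so reads from an overlapping gene on the other strand cannot be told apart.

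Histone genes outside the rule were set beside the members. Most variant histones are made from polyadenylated mRNAs and outside S phase too, whereas H2AFX is known to make a stem-loop mRNA as well, and CENPA is made mainly in G2. Of 22 such genes 10 were tested, 6 were lowered, none was raised, and their median log2 fold change was -0.18. The share called, 6 of 10, was near the 58.7% of all tested genes, of which 29.4% were lowered. At an unadjusted p under 0.05 the count raised was also 0, by edgeR, DESeq2 and limma. H2AFZ, which codes for H2A.Z, went from 677 ± 26.8 to 494 ± 17.5 CPM and fell by 0.46 on the log2 scale (SE 0.048, adjusted p = 1.9e-08, edgeR). H2AFX, the gene of the H2A.X variant that is phosphorylated at DNA breaks, fell by 0.28 on the log2 scale (adjusted p = 3.42e-05), H2AFY by 0.24 and H1F0 by 0.21. CENPA, the histone H3 of centromeres, fell by 1.05 from 28.8 to 14.0 CPM. H3F3A at 0.07 and H3F3B at -0.05, which both code for H3.3, were not called, nor were H1FX at 0.08 and H2AFJ at 0.12. With library size as the only scaling, H3F3A, H1FX and H2AFJ were called raised at 0.18, 0.19 and 0.22, H3F3B turned to 0.06 and the fall of H1F0 was no longer called (adjusted p = 0.0822), nor was it with limma without the filter (adjusted p = 0.0501).

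Genes for making and breaking down histone mRNA moved in both directions. Of 32 such genes, 10 were raised, 15 lowered and 7 not called, with a median log2 fold change of -0.070. This is 78.1% called, beside 58.7% of all tested genes, of which 29.3% were raised and 29.4% lowered. NPAT, the coactivator of histone genes at entry into S phase, went from 27.4 ± 1.95 to 40.9 ± 2.60 CPM, a log2 fold change of 0.58 (SE 0.075, adjusted p = 5.17e-07, edgeR). CASP8AP2, also called FLASH, was raised by 0.44 and HINFP, a factor for H4 promoters, by 0.38. CCNE1 and CCNE2, the cyclin E genes whose kinase acts on NPAT, were raised by 0.68 and 0.67. SLBP was not called, with 177 ± 1.46 and 174 ± 5.44 CPM, and CPSF3, which codes for the nuclease that cuts, was not called at -0.07. Both turned above 0, to 0.08 and 0.04, with library size as the only scaling. LSM10 and LSM11, the proteins particular to the U7 particle, fell by 0.26 and 0.44 (the call of LSM11 was lost with limma without the filter, adjusted p = 0.102), while ZNF473, another U7-associated factor, was raised by 0.31. ERI1, the exonuclease that trims the stem-loop end, fell by 0.28 (adjusted p = 0.0113), a call that was lost without vehicle replicate 3 (adjusted p = 0.0915), with library size only (adjusted p = 0.105) and with limma (adjusted p = 0.0544 to 0.138). TUT7, a terminal uridylyltransferase of histone mRNA decay, was raised by 0.64, and CTIF, a factor of cap-dependent translation, fell by 1.08.

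Genes for ordinary cleavage and polyadenylation were called in both directions. Their list also holds CDK9, NELFA, NELFB, NELFCD, NELFE and CBX5, of which CDK9 was raised and NELFA, NELFCD and CBX5 were lowered. Of 23 tested, 4 were raised and 10 lowered, where 29.3% and 29.4% of all tested genes were, and the median was -0.066 beside -0.0034 for all genes. PABPC1, the cytoplasmic poly-A binding protein, went from 823 ± 33.8 to 579 ± 6.18 CPM and fell by 0.51 on the log2 scale. PABPN1, its nuclear counterpart, fell by 0.45 and NUDT21, a subunit of the cleavage factor that sets the choice between poly-A sites, by 0.42, each with edgeR's adjusted p under the threshold. PAPOLG, a poly-A polymerase, was raised by 0.43, a call lost with limma on log2(FPKM + 1) without the filter (adjusted p = 0.0541).

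Histone chaperones and S phase genes were also called in both directions. Of 29 chaperone genes, 14 were lowered and 7 raised, beside the same 29.4% and 29.3% of all genes. NPM1 went from 1892 to 1102 CPM and fell by 0.78, RBBP4 by 0.76, the H2A.Z chaperone gene ANP32E by 0.67 and MCM2 by 0.58. NASP, which keeps the H3 and H4 reserve, fell by 0.17, a call lost without vehicle replicate 1 (adjusted p = 0.138) or SCH replicate 2 (adjusted p = 0.0886), with library size only (adjusted p = 0.267) and with limma without the filter (adjusted p = 0.112). CHAF1A of the chromatin assembly factor fell by 0.15 (adjusted p = 0.043), a call that several settings and left-out libraries ended. CHAF1B was not called at 0.06, but was with library size only, at 0.16 (adjusted p = 0.0496). ASF1B was raised by 0.31. Of 29 S phase genes, 13 were lowered, 4 raised and 12 not called, with log2 fold changes from -0.93 to 0.68 and a median of -0.092. GINS2 fell by 0.93, MCM5 by 0.89, MCM6 by 0.77 and GINS1 by 0.70, while PCNA was raised by 0.12 (adjusted p = 0.0287), a call lost without vehicle replicate 1 (adjusted p = 0.0941) or SCH replicate 3 (adjusted p = 0.0821) and with upper-quartile scaling (adjusted p = 0.108). The share of tested genes called was 58.6% in the S phase list, near the 58.7% of all genes, 60.9% in the cleavage list, and 72.4% among the chaperones. The phase of the cycle was not analysed here.

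**Figure D5:**
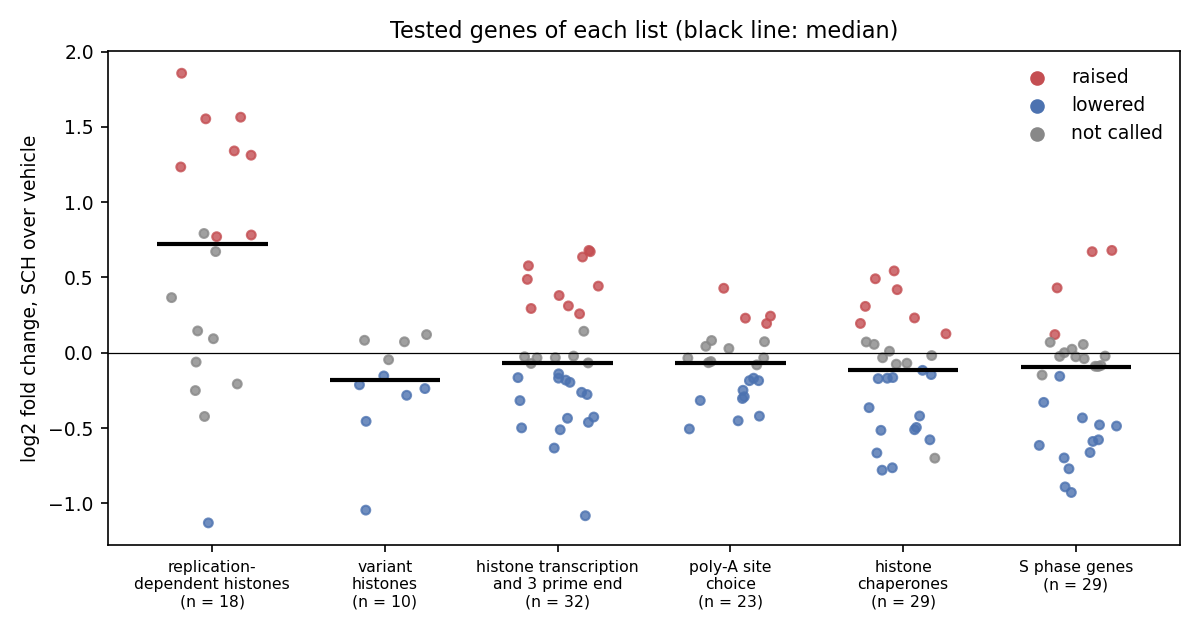
Log2 fold change of SCH over vehicle (y axis) for the tested genes of 6 lists (x axis, horizontal scatter without meaning). Points are genes, coloured by edgeR call, and black lines medians. The median of the replication-dependent histone genes lies at 0.72 and those of the other lists between -0.18 and -0.066.

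RNAs that lack an ordinary poly-A tail in some or all of their forms were followed as well. Of 26 such genes 13 had no count in any library, RN7SK, RMRP and RPPH1 among them. Of the 5 that were tested, MALAT1 and SNORA73B were raised, SNORD17 was lowered, and NEAT1 and RN7SL2 were not called, so that 3 of 5 were called beside 58.7% of all tested genes. MALAT1, whose long RNA ends in a triple helix in place of a tail, went from 69.6 ± 8.81 to 136 ± 28.3 CPM, a log2 fold change of 0.96 (SE 0.10, adjusted p = 1.61e-08, edgeR). SNORA73B, named after its values were seen, was raised by 0.85. The ribosomal RNAs of the mitochondrion took 4053, 3746 and 4265 CPM of the total with vehicle and 5211, 6164 and 7059 with SCH, without overlap. The annotated snoRNAs together took 35.0, 32.3 and 32.7 against 35.8, 42.4 and 37.1 on the same scale. Of the other classes of short RNA, snRNA, scaRNA and misc_RNA overlapped between the groups, the last with 118, 38.9 and 40.2 against 83.7, 33.5 and 44.0. The 26 genes of the list together also overlapped, at 269, 171 and 183 CPM with vehicle and 276, 244 and 286 CPM with SCH. The part of these RNAs, or of how tailless RNA was captured, in the histone values was not tested.

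The labelled cell line was checked against marker genes. Vimentin (VIM), CD44, EGFR and AXL, which MDA-MB-231 cells are known to express, stood at 1404, 998, 559 and 1559 CPM with vehicle, whereas SPARC was near 0 at 0.0729 CPM. The 8 markers of the line summed to 5677 ± 67.7 CPM with vehicle and 4142 ± 14.7 CPM with SCH. Of the 7 that were tested, 6 were lowered and none was raised, where 29.4% of all tested genes were lowered and 29.3% raised. Of the hormone receptors, ESR1 was at 0.217 CPM and PGR had no count with vehicle. The 9 luminal breast markers as a list were not low, at 1376 ± 71.9 CPM with vehicle and 1053 ± 27.0 CPM with SCH, led by the keratin gene KRT8. Of the 5 that were tested FOXA1 was raised and GATA3, KRT8, KRT18 and EPCAM were lowered, where 58.7% of all tested genes were called. The 10 markers of leukocytes, endothelium, fibroblasts and red cells summed to 4.86 ± 0.670 and 2.95 ± 0.331 CPM, led by PDGFRB, and DCN and HBB had no count in any library. PTPRC was lowered from 1.99 to 0.290 CPM. Whether a shift in the kinds of cells had a part in the histone values was not tested.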

How the data were processed

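RNA sequencing covered 3 vehicle and 3 SCH libraries of MDA-MB-231 cells. The authors deposited raw counts per gene and, per sample, FPKM values. Tools named in the submitters' processing notes are CASAVA 1.8, HISAT2 2.0.5, featureCounts 1.5.0-p3 and DESeq2 1.20.0 with build GRCh38, without their roles. All 58735 gene IDs had the same start and end in GENCODE 29, from which transcript sequences were read. The FPKM columns were checked to be counts per gene length within 1%. SCH was tested against vehicle on the counts by edgeR 4.0.16 under R 4.3.3 (TMM, filterByExpr, quasi-likelihood fit without covariates, Benjamini-Hochberg over 14736 genes, threshold 0.05); p-values measure the spread among 3 samples a group. Poly-T capture limits the values to captured RNA. On simulated counts for 14539 genes the test recovered 84.6% of 195 changed genes, with 6.25% false calls. Few genes changed in this simulation, whereas 58.7% of tested genes were called in the data, so it does not give the false-call share of these data. No replicates were copies (chi-square per degree of freedom 2.12 to 5.75). Named members were the 12 with the highest counts and the 4 largest rises and falls among called members with 10 or more counts, and, from each related list, the 4 largest called genes with a mean of 100 or more counts plus a fixed set; the other tested members were named after their values were seen. Members and lists were chosen with earlier results of these data known. Alternatives were run with DESeq2 1.42.0, limma 3.58.1 and other scalings, filters and samples.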

Additional observations from a re-analysis of the deposited data

How the results depend on the processing

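Low counts limit HIST1H2BE, HIST2H2AC and the H3 genes, and most members did not pass the filter on low counts. Leaving out 1 library at a time gave 7 to 9 called members, and the scalings, filters and tests gave 7 to 12. HIST1H2BD, HIST1H2AC, HIST1H1C, HIST2H2BE, HIST1H4H and HIST1H2BC stayed called raised under every alternative run. With edgeR and at least 10 counts in every sample, or with DESeq2, 7 members were called and HIST1H2BE and HIST2H2AC were lost. Requiring a log2 fold change of at least 1 left 7 members, HIST1H2BE and HIST2H2AC among them, and 1292 of all genes, against 8650. Only library size as scaling moved the median of all genes to 0.099 and raised the share of higher calls among all genes from 49.9% to 62.6%.

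The median log2 fold change of the members, 0.72, became 0.82 with library size only, 0.39 without the filter, 0.18 with limma on log2(FPKM + 1), 0.52 with a pseudocount of 0.1, 0.076 with limma and no filter, and 0.35 to 0.72 when 1 library was left out. The log2 ratio of the summed level, 0.62, became 0.72 with library size only and 0.41 for summed FPKM, and lay between 0.60 and 0.66 without 1 library. In alternatives chosen after seeing the data it was 0.47 without HIST1H2BD and 0.36 without HIST1H2BD and HIST1H2AC. The cause of these shifts was not tested, except that library size only moves all genes and that the filter changes which members enter.

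Of 59 named genes, 36 kept direction and side of the threshold in every alternative. Values that changed sign were HIST1H4I at 0.042 (library size only) and -0.23 to 0.063 without 1 library, HIST1H3H at -0.59 to 0.23 without 1 library, and, with library size only, SLBP at 0.076, CPSF3 at 0.035 and H3F3B at 0.057. None of them was called in the reported test, and the cause was not tested. Replicate numbers are shared between the groups, but deviations of same-numbered samples correlated at 0.046, -0.022 and 0.022, so they share only a number. With the replicate block, 9 members were called, the same 9, 8705 genes in all, and the median of the members was 0.70.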

Other observations

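Of the 19 histone pseudogenes left out by the rule, 5 had any count. The transcribed pseudogene HIST2H2BC had 51, 74 and 61 counts with vehicle and 136, 109 and 110 with SCH, and in the edgeR fit over all genes it was raised by 0.94 on the log2 scale (SE 0.18, adjusted p = 9.1e-05). HIST2H2BD had 13, 21 and 12 against 39, 22 and 38 counts and was raised by 1.10 (SE 0.32, adjusted p = 0.00532). Both were named after their values were seen. The SCH samples lay above the vehicle samples in both genes. HIST2H2BA, HIST2H2BB and HIST2H3DP1 had 7, 4 and 8 counts over the 6 libraries.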
